A study of Mus musculus with 6 samples.

Results

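The tubulin isotype genes described here are the α-tubulin genes Tuba1a, Tuba1b, Tuba1c and Tuba4a and the β-tubulin genes Tubb2a, Tubb2b, Tubb3, Tubb4b, Tubb5 and Tubb6. They are 10 of the 53801 Ensembl gene identifiers in the count tables and were taken by gene name. The list was selected on their measured log2 fold change between Hdac4-knockdown and control in these same libraries, so that difference is given as a description, without a test. MC3T3-E1, a mouse pre-osteoblast line from newborn calvaria, was infected with a lentivirus that carried either a scrambled non-silencing RNA (control, 3 libraries) or an Hdac4-shRNA (Hdac4-knockdown, 3 libraries). Both viruses used the same vector, with ZsGreen1 and a puromycin resistance gene, and both populations were selected with puromycin. The sample labels give no number for the Hdac4-shRNA, and the study's text names Hdac4-shRNA3 as the one that was sequenced. No cloning step is described. The 3 RNA samples of a group were described as independent, and the study calls them biological replicates. Whether they came from separate infections is not given, so the spread between them may be partly technical.

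Microtubules are hollow polymers of α- and β-tubulin heterodimers, and mammals encode each subunit in several genes, called isotypes, whose products copolymerize. Proliferating cells use microtubules to build the mitotic spindle, while neurons, muscle and ciliated cells express further isotypes. The level of tubulin mRNA is itself under feedback, since TTC5 binds the N terminus of newly made tubulin on the ribosome and directs the decay of the translated mRNA when free tubulin dimers are abundant.

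Gene counts numbered 29096544 to 31053296 in the control libraries and 29554263 to 31651826 in the Hdac4-knockdown libraries. Hdac4 itself had 1243, 1204 and 1136 counts in control and 950, 927 and 887 in Hdac4-knockdown, or 40.3 ± 0.412 and 29.6 ± 0.981 CPM (counts scaled to the normalized library size, mean ± SD, n = 3). This was 73.6% of the control level (edgeR quasi-likelihood test, adjusted p = 8.98e-07). Of 14531 genes tested, 75.1% were called, 37.1% lower and 38% higher in Hdac4-knockdown, where a call needs an adjusted p below 0.05 together with a log2 fold change of more than 0.05 in either direction. The median log2 fold change of all tested genes was 0.01. Of the osteoblast markers, Alpl (tissue-nonspecific alkaline phosphatase) had at most 3 counts in every library, Bglap (osteocalcin) and Ibsp (bone sialoprotein) had at most 3 in every control library, and Spp1 (osteopontin) was the most abundant in control. The 12 osteoblast markers summed to 5707 to 5751 CPM in control and 23353 to 24245 CPM in Hdac4-knockdown. Most of that rise was in Col1a1 (mean 338 to 11015 CPM) and Col1a2 (1213 to 8572 CPM). Of the 12, 6 were called higher and 1, Spp1, was called lower.

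The coding sequences of these isotypes were close to each other, which matters for how reads were assigned. Among the α-tubulin genes, identity between coding sequences was 84.7 to 98.3%, among the β-tubulin genes 80.2 to 96.5%, and between the classes 55.8 to 57.7%. The first 30 coding bases are shown because their first 4 codons, in capitals, encode the N-terminal residues that TTC5 recognizes. The codons are taken from GENCODE M21 transcripts (GRCm38).
Tuba1a: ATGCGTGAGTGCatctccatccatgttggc
Tuba4a: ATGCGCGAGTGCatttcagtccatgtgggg
Tubb2a: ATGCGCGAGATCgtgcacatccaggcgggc
Tubb2b: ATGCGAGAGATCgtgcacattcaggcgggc
Tubb3: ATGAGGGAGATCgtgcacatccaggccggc
Tubb5: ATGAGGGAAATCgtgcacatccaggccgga
The fourth codon was tgc (cysteine) in Tuba1a, Tuba1b, Tuba1c and Tuba4a, and atc (isoleucine) in Tubb2a, Tubb2b, Tubb3, Tubb4b and Tubb5.

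The last 60 coding bases of Tuba1c and Tuba4a are shown because the last residue of α-tubulin is removed by vasohibins and put back by tubulin tyrosine ligase. Capitals mark the last sense codon before the stop.
Tuba1c: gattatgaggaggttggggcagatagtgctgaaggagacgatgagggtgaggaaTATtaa
Tuba4a: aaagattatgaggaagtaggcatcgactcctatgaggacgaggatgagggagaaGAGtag
Tuba1c ends in a tyrosine codon. Tuba4a ends in a glutamate codon and so encodes no terminal tyrosine.

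The closest β-tubulin pair, Tubb2a and Tubb2b, differed at 47 of 1338 coding bases, and the closest α-tubulin pair, Tuba1a and Tuba1b, at 23 of 1356. The stretch of 60 coding bases with the most differences is shown for each pair. Within the coding sequence, only reads over differing bases can tell the genes of a pair apart. Capitals mark the 10 differing bases in each stretch, which covers coding bases 112 to 171 for the first pair and 640 to 699 for the second.
Tubb2a: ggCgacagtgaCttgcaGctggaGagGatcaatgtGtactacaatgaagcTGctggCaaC
Tubb2b: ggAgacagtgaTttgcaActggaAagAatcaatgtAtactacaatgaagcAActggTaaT
Tuba1a: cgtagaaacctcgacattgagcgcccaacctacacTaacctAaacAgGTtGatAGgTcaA
Tuba1b: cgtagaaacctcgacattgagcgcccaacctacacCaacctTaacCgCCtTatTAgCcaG
Of all stretches of 100 bases in the main transcript of each gene, those found in no other gene's transcripts made up 27.0% for Tuba1b, 34.2% for Tuba1a, 46.6% for Tuba1c, 53.3% for Tuba4a, 63.1% for Tubb2a, 69.4% for Tubb4b and 72.3% for Tubb2b. The share was 100% for Tubb3, Tubb5 and Tubb6. Counts of Tuba1a, Tuba1b and Tuba1c are therefore the least certain, since reads from their shared stretches could not be assigned to 1 gene.

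Every one of the 10 genes had a lower normalized read count in all 3 Hdac4-knockdown libraries than in any control library. All 10 passed the filter on low counts, and the lowest count of any of them in any library was 263. They were all called lower, where 37.1% of all tested genes were called lower and 38% lay lower in every Hdac4-knockdown library than in every control library; since the list was proposed from this difference, nothing is read from that count. Beyond a log2 fold change of 0.5 in size, 8 of the 10 were called lower (19.8% of all tested genes), and beyond 1, 5 were (10.6%). Their median log2 fold change was -0.98, with -1.11 over the 4 α-tubulin genes and -0.83 over the 6 β-tubulin genes. In bulk RNA, fewer cells of a kind and less tubulin RNA per cell cannot be told apart.

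**Figure D1:**
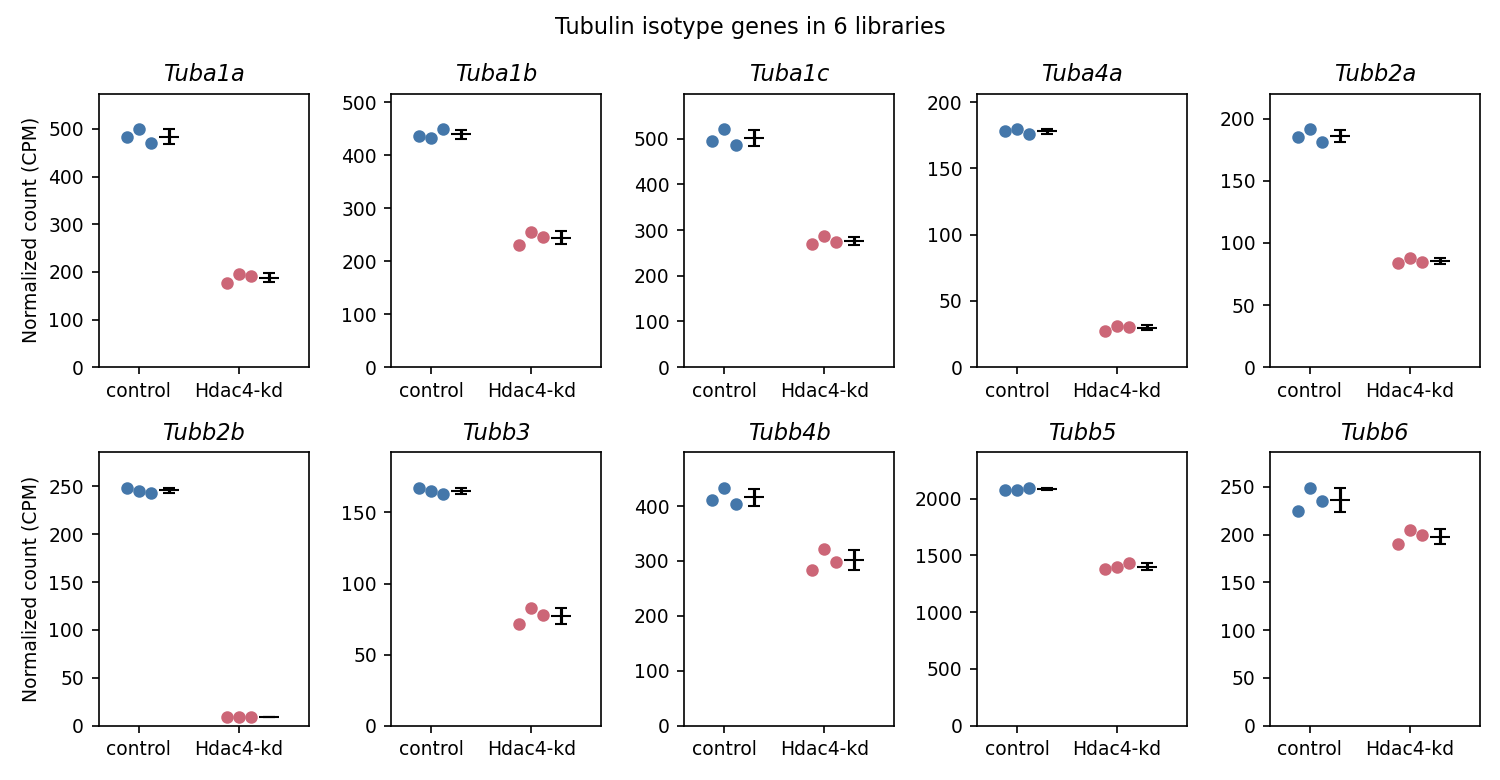
Normalized read count (CPM, linear axis from 0) of each tubulin isotype gene in 3 control (blue) and 3 Hdac4-knockdown (red) libraries, with the mean and SD of each group in black. In every panel the red points lie below the blue points, from Tubb2b at 246 against 8.95 CPM to Tubb6 at 236 against 198 CPM.

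Tuba1a, the main α-tubulin gene of developing neurons, lies on chromosome 15 (98949837 to 98953703, minus strand, GRCm38). Its normalized read count was 483, 499.5 and 469.7 CPM in the control libraries and 177, 195 and 191 CPM in the Hdac4-knockdown libraries. The groups did not overlap, and the lowest control library was above the highest Hdac4-knockdown library by more than the range of either group. The mean fell from 484 ± 14.9 to 188 ± 9.38 CPM (SD, n = 3), which is 2.58-fold lower, with a log2 fold change of -1.37 ± 0.0438 (SE).

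Tuba1b (98931425 to 98934565, minus strand) and Tuba1c (99029891 to 99038110, plus strand) lie in the same cluster on chromosome 15 and are expressed in most dividing cells. Tuba1b was at 437, 433 and 449 CPM in control and 231, 255 and 246 CPM in Hdac4-knockdown. Tuba1c was at 495, 521 and 486 CPM in control and 269, 287 and 273 CPM in Hdac4-knockdown. Both genes fell to nearly the same fraction, 55.6% of control for Tuba1b (log2 fold change -0.85 ± 0.0421, SE) and 55.2% for Tuba1c (-0.86 ± 0.0411). Tuba1a and Tuba1b also share 473 and 426 exon bases by position with Gm49450, so part of their reads could have been set aside as ambiguous.

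Tuba4a (chromosome 1, 75214228 to 75219865, minus strand) is the α-tubulin gene that ends in a glutamate codon. It was at 178, 179.6 and 176 CPM in control and 27.5, 31.1 and 30.6 CPM in Hdac4-knockdown. The control libraries differed little from each other, with a coefficient of variation under 1%, and no Hdac4-knockdown library came near them. The mean of 29.7 ± 1.98 CPM was 16.7% of control, or 5.99-fold lower (log2 fold change -2.58 ± 0.0517, SE), the largest fall among the 4 α-tubulin genes. On the opposite strand, Stk16, a serine/threonine kinase gene, shares 1379 exon bases with Tuba4a, and the library kit did not mark strand, so reads there could not be told apart. Stk16 itself was not called, with a log2 fold change of 0.04 (adjusted p = 0.483).

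Tubb2b (chromosome 13, 34126748 to 34130466, minus strand) encodes a β-tubulin best known from the developing nervous system. It had 7593, 7338 and 6928 counts in the control libraries and 289, 283 and 263 in the Hdac4-knockdown libraries. On the normalized scale, this was 248, 245 and 243 CPM against 9.34, 8.78 and 8.74 CPM. It was the most strongly reduced of the 10 genes, still well above zero in each Hdac4-knockdown library but at 3.65% of the control level, 27.4-fold lower (log2 fold change -4.78 ± 0.0537, SE). In the list of all tested genes ordered from the lowest log2 fold change, it stood at place 92.

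Tubb2a, its neighbour on the same strand (34074274 to 34078007), was at 186, 192 and 181 CPM in control and 83.6, 88.3 and 84.4 CPM in Hdac4-knockdown. It fell to 45.9% of control (log2 fold change -1.12 ± 0.0436, SE). Per kilobase of exon, the ratio of Tubb2a to Tubb2b was 1.06, 1.11 and 1.06 in control and 12.7, 14.3 and 13.8 in Hdac4-knockdown. The pair was thus at near-equal levels per length in control, and Tubb2a was the far more abundant member after knockdown. The genes share 543 of their stretches of 100 bases, so part of their reads cannot be assigned to a single gene.

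Tubb3, the β-tubulin used as a marker of neurons, lies on chromosome 8 (123411424 to 123422015, plus strand) and had no stretch in common with another gene. It was at 167, 165 and 163 CPM in control and 71.6, 82.5 and 77.7 CPM in Hdac4-knockdown. The Hdac4-knockdown libraries varied most for this gene, with a coefficient of variation of 7.09%, but all stayed under the control libraries. Its mean was 46.8% of control (log2 fold change -1.10 ± 0.0496, SE).

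Tubb5 (chromosome 17, 35833921 to 35838306, minus strand) is the main β-tubulin of dividing cells. It was at 2076, 2077 and 2096 CPM in control and 1378, 1393 and 1433 CPM in Hdac4-knockdown. By mean control CPM it ranked 21 among all tested genes, far above every other tubulin gene, and no Hdac4-knockdown library came close to a control library. The mean fell from 2083 ± 11.4 to 1401 ± 28.2 CPM (n = 3), to 67.3% of control (log2 fold change -0.57 ± 0.0344, SE).

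Tubb4b (chromosome 2, 25222160 to 25224702, minus strand) encodes a β-tubulin that is broadly expressed and abundant in cilia. It was at 411, 433 and 403 CPM in control and 284, 322 and 299 CPM in Hdac4-knockdown, or 72.5% of control (log2 fold change -0.46 ± 0.0459, SE). Tubb6, which encodes a more divergent β-tubulin and lies on chromosome 18, was at 225, 249.1 and 235 CPM in control and 189.7, 204 and 199.9 CPM in Hdac4-knockdown. It changed least of the 10, to 83.8% of control (log2 fold change -0.26 ± 0.0453, SE), and the gap between its groups was narrower than the range of the control libraries.

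**Figure D2:**
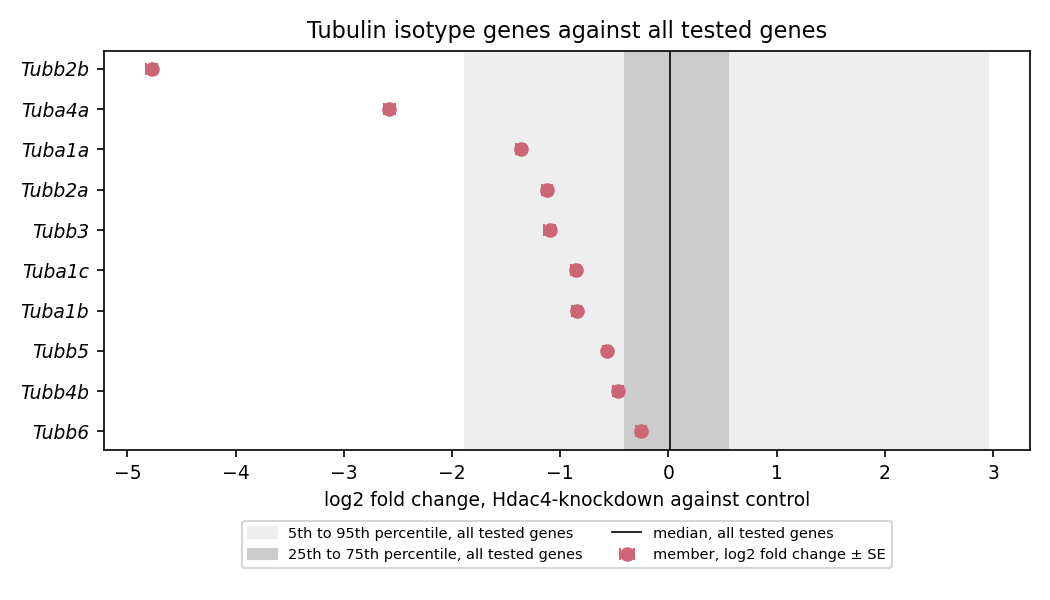
Log2 fold change of Hdac4-knockdown against control (x axis) for each tubulin isotype gene, with bars of ± 1 SE. Grey bands span the 25th to 75th and the 5th to 95th percentile of all 14531 tested genes and the line marks their median of 0.01. Tubb2b and Tuba4a lie below the 5th percentile of -1.88, and Tubb6 alone lies within the inner band.

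Within a group, the same library was often the highest or the lowest across these genes. Hdac4-knockdown library 2 was the highest of its group for 8 of the 10 genes, and Hdac4-knockdown library 1 the lowest for 9. In control, library 2 was the highest for 6 genes and library 3 the lowest for 7. The deviations were small beside the group differences for every gene but Tubb6, whose control range exceeded the gap between its groups. Coefficients of variation were 0.548 to 5.16% in control and 2.02 to 7.09% in Hdac4-knockdown.

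Summed over the 10 genes, tubulin reads made up 0.484 ± 0.00362% of all gene counts in control and 0.286 ± 0.00770% in Hdac4-knockdown (n = 3), a fall to 59.2% of control. The α-tubulin genes fell from 0.157 to 0.0752% of gene counts and the β-tubulin genes from 0.327 to 0.211%. Without Tubb2b, the other 9 genes still fell to 62.1% of control.

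Levels of different genes were compared as CPM per kilobase of exon. In control, the order from the highest was Tubb5 (626 CPM per kb), Tuba1a (268), Tuba1b (234), Tuba1c (219), Tubb4b (199), Tubb2a (116), Tubb2b (107), Tubb6 (97.0), Tubb3 (88.5) and Tuba4a (48.1). No neighbours in that order overlapped across their 3 libraries. In Hdac4-knockdown, the order was Tubb5 (421 CPM per kb), Tubb4b (144), Tuba1b (130.2), Tuba1c (121), Tuba1a (104), Tubb6 (81.2), Tubb2a (53.1), Tubb3 (41.4), Tuba4a (8.04) and Tubb2b (3.90). Here the ranges over libraries of Tubb4b and Tuba1b overlapped, as did those of Tuba1b and Tuba1c, although within each of the 3 libraries Tubb4b was above Tuba1b and Tuba1b above Tuba1c. By exon length, Tuba1a went from the highest to the lowest of the 3 Tuba1 genes, and Tubb2b went to the last place of the 10. The place of Tuba1a depended on the length used in both groups, and other places also moved. By the longest coding transcript, Tubb6 held 8.97% of β-tubulin in control, above Tubb2a (7.72%) and Tubb2b (7.52%). With counts divided by the stretches found in no other gene, the order was Tuba1b, Tuba1a and Tuba1c in both groups. Their shares of α-tubulin were then 39.4, 33.1 and 22.7% in control and 45.5, 26.7 and 26.1% in Hdac4-knockdown.

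The make-up of each class changed along with its sum. Tubb5 rose as a share of β-tubulin CPM per kb, from 50.8 ± 0.712 to 56.5 ± 1.21% (SD, n = 3), although its own level fell. Tubb4b went from 16.1 to 19.4% and Tubb6 from 7.86 to 10.9% of β-tubulin. Tubb2a went from 9.37 to 7.12%, Tubb3 from 7.17 to 5.55% and Tubb2b from 8.68 ± 0.139 to 0.524 ± 0.0340%. The 3 β-tubulin genes best known from neurons thus took smaller shares, and the other three larger shares. Among the α-tubulin genes, Tuba1a went from 34.9 ± 0.539 to 28.7 ± 0.379% and Tuba4a from 6.25 ± 0.0567 to 2.21 ± 0.0637%. Tuba1b went from 30.5 to 35.9% and Tuba1c from 28.4 to 33.3%. The direction of all 10 share changes stayed the same with another transcript length, with the stretches found in no other gene, and with raw counts. Each of these settings treats a gene alike in both groups and assigns no shared read anew. Nothing is therefore read from this agreement, and it does not lessen the uncertainty from shared sequence. The ratio of β- to α-tubulin CPM per kb was 1.60, 1.59 and 1.61 in control and 2.09, 2.01 and 2.06 in Hdac4-knockdown.

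**Figure D3:**
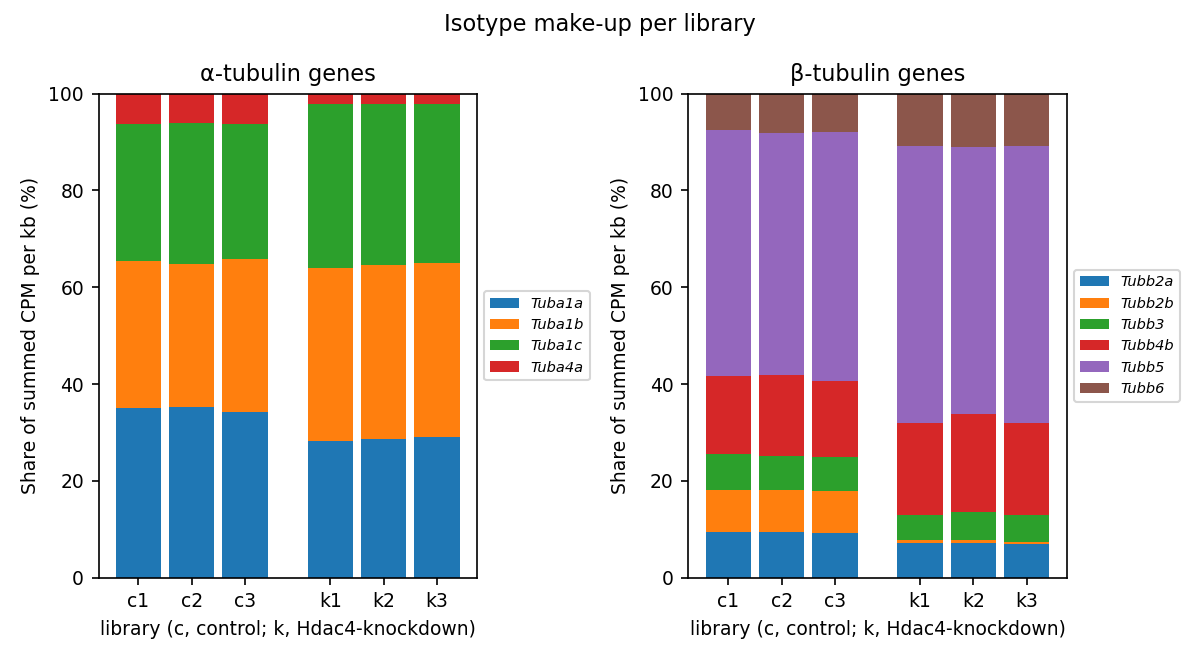
Share of each isotype in the summed CPM per kilobase of the α-tubulin genes (left) and the β-tubulin genes (right), one bar per library (c1 to c3, control, and k1 to k3, Hdac4-knockdown). Libraries of a group look alike, Tubb2b shrinks from 8.68 to 0.524% of β-tubulin, and Tubb5 holds the largest share of β-tubulin in every library.

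The promoters of 8 of the 10 genes were present in the RefSeq table for GRCm38.p6 (Tubb2b and Tubb6 were not). Those of Tubb2a and Tubb5 are shown as examples that hold different motifs. Each sequence is the 250 bases before the RefSeq start, read on the minus strand, and capitals mark the CCAAT box, the GGGCGG core of a GC box or the TATAAA box on either strand. The first covers chr13:34078009-34078258 and the second chr17:35838302-35838551.
Tubb2a: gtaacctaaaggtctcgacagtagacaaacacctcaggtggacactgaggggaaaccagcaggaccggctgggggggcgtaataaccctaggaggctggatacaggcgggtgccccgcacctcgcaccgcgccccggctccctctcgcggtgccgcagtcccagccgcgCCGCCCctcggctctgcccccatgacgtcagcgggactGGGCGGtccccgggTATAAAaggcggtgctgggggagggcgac
Tubb5: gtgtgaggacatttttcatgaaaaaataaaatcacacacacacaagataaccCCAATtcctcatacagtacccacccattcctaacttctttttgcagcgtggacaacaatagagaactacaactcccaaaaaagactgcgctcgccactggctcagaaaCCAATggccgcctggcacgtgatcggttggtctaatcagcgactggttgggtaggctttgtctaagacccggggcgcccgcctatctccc
In this window of 250 bases, the GGGCGG motif was found for 6 of the 8 genes (all but Tuba1c and Tubb5). Its share was 32.7% of 32851 promoters of the same length. CCAAT was found in 5 of 8 (Tuba1a, Tuba1c, Tubb3, Tubb4b and Tubb5), against 33.8% of all. TATAAA was found in 1 of 8 (Tubb2a), against 12.4%. TTTGAA, the core of the cell cycle homology region, was found in the Tubb4b promoter alone among them (16% of all), and CANNTG, the E-box, in 7 of 8 (66.2% of all). The MEF2 box was found in no tubulin promoter (2.92% of all), nor was the CArG box (1.47%). A gene was counted if any of its promoter entries held the motif, whereas the percentages are over single entries. These are matches of letters in a fixed window on both strands, and no binding was measured.

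Calls of genes next to the tubulin genes are given beside those of all tested genes, of which 37.1% were called lower and 38% higher. Within 100 kb of the Tuba1 cluster, 2 of 7 tested neighbours were called lower and 1 higher, with a median log2 fold change of -0.04. Near the Tubb2 pair, 3 of 7 were called lower and 1 higher (median -0.09), near Tubb3, 2 of 7 lower and 4 higher (0.14), and near Tuba4a, 4 of 13 lower and 5 higher (0.04). Near Tubb4b, 6 of 7 neighbours were called higher and 0 lower (0.29), while Tubb4b itself was lower. Near Tubb5, 5 of 12 were called lower and 0 higher (-0.15). With so few neighbours per locus, nothing is read from these counts, and a part of the locus was not tested.

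Of 12 other tubulin genes, 5 had enough counts for the test. Tubg1, which encodes the γ-tubulin of the centrosome, was lower in Hdac4-knockdown, at 55.7 ± 4.20 against 93.8 ± 3.12 CPM (n = 3, log2 fold change -0.75 ± 0.0547 SE, adjusted p = 2.02e-10). Tube1, the ε-tubulin gene of centrioles, was also lower, at 10.4 against 18.8 CPM (log2 fold change -0.86, adjusted p = 4.00e-08). Tubg2, the second γ-tubulin gene, was called higher from very low counts, 3, 4 and 2 in control and 26, 21 and 11 in Hdac4-knockdown (adjusted p = 2.10e-04). Tubd1, the δ-tubulin gene, was not called (log2 fold change 0.09, adjusted p = 0.526), and neither was the pseudogene Tubb4b-ps1 (adjusted p = 0.182). The remaining α- and β-tubulin genes were near or at 0: Tuba3a, Tubal3 and Tubb1 had 0 counts in every library, Tuba3b had 1 count in all, Tuba8 had at most 5 in a library, Tubb4a had 8 to 11 counts in control and 3 to 6 in Hdac4-knockdown, and the pseudogene Tubb2a-ps2 had 4, 13 and 8 against 1, 0 and 3. The 10 genes described here therefore held nearly all the α- and β-tubulin reads in these cells.

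New tubulin is folded by prefoldin, the CCT ring and the tubulin cofactors. Of 20 folding genes, all of them tested, 14 were called lower and 1 higher (37.1% and 38% of all tested genes). Their median log2 fold change was -0.26. Cct4 and Cct5, subunits of the CCT ring, were at 62.4% and 63.3% of control (log2 fold change -0.68 and -0.66, adjusted p = 2.21e-12 and 4.12e-12). Tbcd, a cofactor that holds β-tubulin, was at 66.4% (-0.59, adjusted p = 2.79e-10). Tbcc, the cofactor that releases the finished dimer, was the one called higher, at 23.7 against 18.4 CPM (0.37, adjusted p = 1.72e-04).

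The 3 genes of tubulin mRNA decay were each called lower, as were 37.1% of all tested genes. Ttc5, which reads the N termini shown above, was at 21.6 ± 0.2496 CPM against 25.9 ± 2.15 CPM in control (log2 fold change -0.26, adjusted p = 0.00253). Scaper, the adaptor between TTC5 and the deadenylase, was at 80.9% of control (-0.31, adjusted p = 0.00499). Cnot11, a subunit of the CCR4-NOT deadenylase, was at 64.5% (-0.63, adjusted p = 2.24e-09). Decay of tubulin mRNA was not measured, and the part of these genes in the tubulin differences was not tested.

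Enzymes that modify assembled tubulin went both ways. Of 24 genes, 17 were tested, and 10 were called lower and 2 higher (37.1% and 38% of all tested genes). Their median log2 fold change was -0.35. Scaled by library size alone or by the upper quartile, 10 were lower and 4 higher. Vash1, a vasohibin that removes the terminal tyrosine of α-tubulin, was at 2.53 ± 0.231 against 9.86 ± 0.275 CPM in control (log2 fold change -1.96, adjusted p = 2.78e-11), whereas Vash2, the other vasohibin, was higher, at 60.3 against 41.0 CPM (0.56, adjusted p = 1.20e-08). Hdac6, a deacetylase that acts on α-tubulin in the cytoplasm, was at 44.7% of control (-1.16, adjusted p = 1.89e-13). Ttll1, a polyglutamylase, was at 56.4% (-0.83, adjusted p = 3.68e-10). Ttll3, a glycylase of axonemal tubulin, was 2.73-fold higher from a low level (1.45, adjusted p = 3.92e-10).

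Stathmins bind free tubulin dimers and promote disassembly. All 3 tested members of 4 were called lower (37.1% of all tested genes), with a median log2 fold change of -1.30. Stmn1, the stathmin of proliferating cells, was at 48.8 ± 1.46 against 103 ± 2.07 CPM in control (adjusted p = 5.48e-14). Stmn2, a neuronal stathmin, was at 45.8 against 112 CPM (adjusted p = 1.82e-15). Stmn4 fell from 235, 258 and 244 counts to 21, 13 and 5 (log2 fold change -4.30, adjusted p = 2.21e-12). Stmn3 was not tested, with at most 5 counts in a library.

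Proteins that bind the microtubule lattice or its ends were divided. Of 25 genes, 22 were tested, and 8 were called lower and 12 higher (37.1% and 38% of all tested genes). Their median log2 fold change was 0.16. Map2, a dendritic microtubule-associated protein, was at 35.6% of control (log2 fold change -1.49, adjusted p = 1.17e-11). Ckap5, a polymerase that adds tubulin to plus ends, was at 41.4% (-1.27, adjusted p = 3.12e-16), and Map1b was at 61.0% (-0.71, adjusted p = 3.46e-11). Dclk1, a doublecortin-like kinase, was 2.29-fold higher (1.20, adjusted p = 3.82e-14), Map9 1.81-fold higher (0.85, adjusted p = 8.70e-07) and Camsap2, a minus-end binding protein, 1.72-fold higher (0.78, adjusted p = 7.92e-11). With so few genes, nothing is read from the excess of higher over lower calls in this list.

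Of 8 severing enzymes, 7 were tested, and 2 were called lower and 3 higher (37.1% and 38% of all tested genes). Their median log2 fold change was -0.01. Fignl1 was at 56.8% of control (-0.82, adjusted p = 1.45e-10). Spast (spastin) was called higher by a small margin, at 55.1 against 50.6 CPM (0.12, adjusted p = 0.0414), and this call was lost with no filter on low counts (adjusted p = 0.203) and with DESeq2 (0.139). It was also lost in edgeR on leaving out any 1 library other than Hdac4-knockdown library 3, with adjusted p from 0.0577 (without Hdac4-knockdown library 2) to 0.154 (without control library 3). Of 11 nucleation genes, all tested, 6 were called lower and 0 higher (37.1% and 38% of all tested genes). Their median log2 fold change was -0.21. Scaled by library size alone, 6 were lower and 2 higher, and by the upper quartile, 6 and 3. Cdk5rap2 and Pcnt, which anchor γ-tubulin at the centrosome, were at 49.2% and 59.1% of control (-1.02 and -0.76, adjusted p = 7.65e-14 and 1.96e-11), and Nedd1, which recruits the γ-tubulin ring, at 76.7% (-0.38, adjusted p = 1.26e-05).

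**Figure D4:**
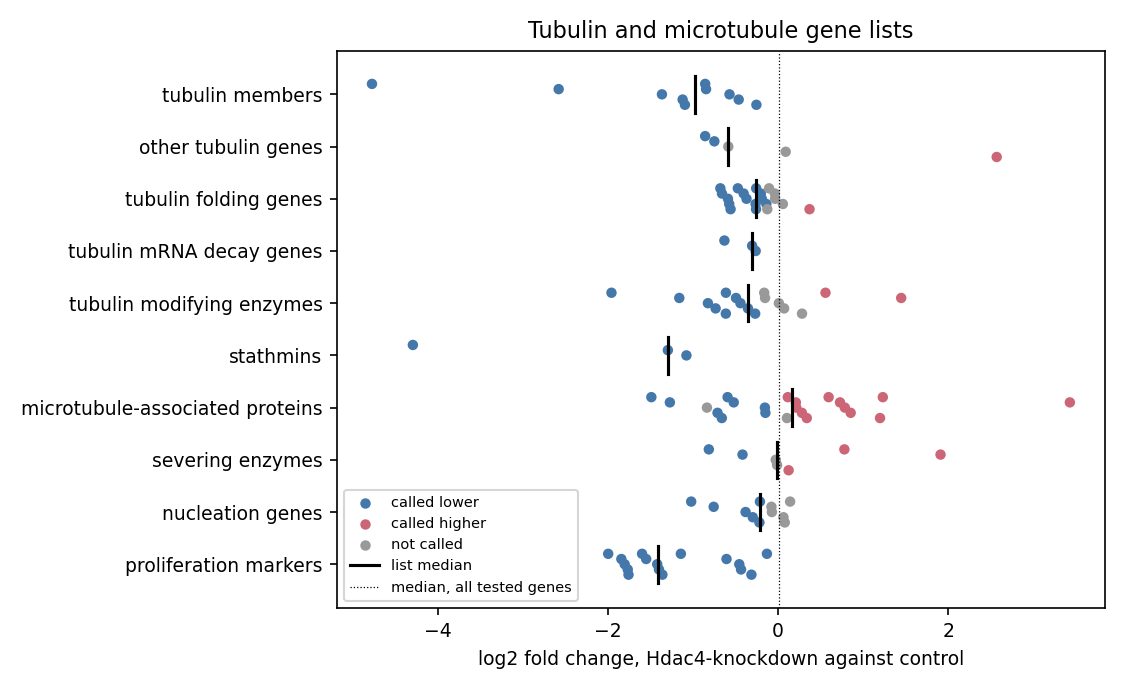
Log2 fold change of Hdac4-knockdown against control for each tested gene of the tubulin and microtubule lists, and of the proliferation markers, coloured by call, with the median of each list as a bar and the median of all tested genes as a dotted line. The tubulin isotype genes (median -0.98), mRNA decay genes (-0.31), stathmins (-1.30) and proliferation markers (-1.41) lie wholly to the left of the line, and the microtubule-associated proteins (0.16) lie on both sides.

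Most tested markers of other cell states were lower along with the tubulin genes. Over all tested genes, 37.1% were called lower and 38% higher. All 16 proliferation markers were called lower, with a median log2 fold change of -1.41, and their sum went from 4275 to 4355 CPM in control to 2159 to 2202 CPM in Hdac4-knockdown. Of 7 muscle markers, 6 were tested and all 6 were called lower, and their sum went from 897 to 932 CPM to 127 to 146 CPM. The most abundant of them was Des (desmin), at 737 ± 18.5 CPM in control and 102 ± 8.39 CPM in Hdac4-knockdown (adjusted p = 4.49e-20). Of 13 neuron markers, 7 were tested, 5 were called lower and 1 higher. The 13 summed to 582 to 600.4 CPM in control and 10.6 to 12.1 CPM in Hdac4-knockdown. The marker called higher was Syt1, with 2, 0 and 4 counts in control and 56, 43 and 57 in Hdac4-knockdown. Uchl1 was not called. The most abundant neuron marker in control was Nefl (neurofilament light chain), with 7696, 7175 and 7347 counts in control and 2, 1 and 0 in Hdac4-knockdown. The defining neuronal genes Rbfox3, Elavl3, Elavl4, Snap25 and Ina had at most 3 counts in every library of either group, while Tubb3 and Tubb2b each had at least 4644 counts in every control library. The part of proliferation, muscle or neuron genes in the tubulin differences was not tested.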

How the data were processed

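MC3T3-E1 RNA was sequenced as poly-A selected libraries, 3 per group. The authors deposited raw counts per Ensembl gene for each library, without normalization. The submitters' processing notes name FastQC, STAR 2.7.3a, HTSeq 0.12.4 and mm10; annotation release, strand setting and read length are not given in the sources used here. Summary lines (reads outside genes, ambiguous, or aligned to several places) were left out: 3.17 to 5.07%, 5.84 to 6.51% and 3.88 to 4.77% of reads per library. Symbols, positions, exon lengths and coding sequences came from GENCODE M21 (GRCm38), which gave symbols for 53620 of 53801 identifiers, and promoters from RefSeq.

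Counts were fitted with edgeR 4.0.16 in R 4.3.3 (TMM, filterByExpr, quasi-likelihood F test, Benjamini-Hochberg over 14531 genes). SE is the log2 fold change divided by the square root of F. Chi-square per degree of freedom between libraries of a group was 3.36 to 9.32, so replicates differed beyond sampling noise, and the common biological coefficient of variation was 4.79%. The fit was tested on simulated data with 200 planted changes. These are far fewer than the genes called here, so the simulation does not probe that setting. Alternatives used DESeq2 1.42.0, limma 3.58.1, other scalings, filters, thresholds and left-out libraries. Biopython 1.88 and matplotlib 3.10.9 were used for sequences and figures.

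Members and lists were chosen with earlier results of these data known. Named genes were all members, the other tubulin, mRNA decay and stathmin genes, and, of each further list, up to 3 called genes with the largest and up to 3 with the smallest log2 fold change among those with a mean of at least 100 counts per library and groups that did not overlap. Of markers, those at 3 counts or fewer in every control library and the most abundant in control were named. Col1a1, Col1a2, Syt1 and Uchl1 were named in addition. One severing enzyme gene that the rule names, and some sequences, are not reported here.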

Additional observations from a re-analysis of the deposited data

Results flagged for a closer look

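Reads that the counting placed outside any gene, which enter no comparison here, made up 4.79% of all reads on average in the Hdac4-knockdown libraries (4.64 to 5.07%), above the 3.17 to 3.41% of the control libraries. Reads set aside as ambiguous between genes were 5.84 to 5.92% in Hdac4-knockdown and 6.36 to 6.51% in control. How many of either came from tubulin genes was not tested.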

How the results depend on the processing

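The tubulin genes were selected on this difference, so its persistence under other settings is given as a description and supports nothing. All 10 had a lower level in Hdac4-knockdown under each of the 14 refits (other scalings, filters, tests, the replicate block and left-out libraries), and the upper quartile scaling, which moved the median of all genes by 0.089 on the log2 scale, moved them most. Raising the threshold on the log2 fold change to 0.5 lowered the genes called in all from 10914 to 6458, folding genes from 15 to 5, mRNA decay genes from 3 to 1, microtubule-associated proteins from 20 to 13, severing enzymes from 5 to 3 and nucleation genes from 6 to 2. A threshold of 1 left 3940 genes in all, 5 tubulin isotype genes, 1 other tubulin gene, 0 folding and 0 mRNA decay genes, 3 modifying enzymes, 5 microtubule-associated proteins, 1 severing enzyme and 1 nucleation gene. The Tubb5 share of β-tubulin in control was 52.5% by the longest coding transcript, 45.1% by stretches found in no other gene and 62.5% by raw counts, and in Hdac4-knockdown 50.1% by such stretches and 67.6% by raw counts. Leaving out 1 library at a time gave 10578 to 10921 genes called and Tubb5 shares of 50.4 to 51.2% and 56.1 to 57.2%. Deviations of same-numbered libraries correlated at -0.011, 0.027 and 0.017, so no shared effect of the replicate number was seen. This cannot settle whether the samples were paired. Adding the number as a block (replicate block) gave 10964 genes called in all. Shared sequence limits Tuba1a, Tuba1b and Tuba1c most.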
